A study of Caenorhabditis elegans with 4 samples.

Results

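The regions described here are the 478 combined NHR-6 peaks of chromosome V in Caenorhabditis elegans, chosen as all lines of the combined peak list whose chromosome is V, out of 2707 combined peaks on 6 nuclear chromosomes. Coordinates are on build WS220 and count from 1. Peaks come from chromatin immunoprecipitation followed by sequencing (ChIP-seq), in which DNA bound by a tagged protein is pulled down and sequenced. The series holds 2 ChIP libraries, made with an anti-GFP antibody, and 2 input libraries of total genomic DNA, all from L4 hermaphrodites of strain OP90 raised at 20 °C. Every library, input included, comes from worms with the unc-119(ed3) mutation on chromosome III and the transgene wgIs90, which encodes nhr-6::TY1::EGFP::3xFLAG next to a rescuing unc-119(+), so the series has neither an untagged nor a wild-type group. Per the labels, the transgene was introduced by biolistic transformation and the strain was not outcrossed. The labels describe the fusion protein in neurons around the pharynx at the L2 stage, while the worms sampled were whole animals at L4. The sources used here do not give the place in the genome where wgIs90 inserted.

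NHR-6 is the nematode receptor of the NR4A group, transcription factors that in mammals act as early response genes and bind DNA without a known natural ligand. In C. elegans, nhr-6 is known for its role in forming the spermatheca, the organ in which eggs are fertilised. The autosomes of the worm have a gene-dense centre that recombines little, flanked by arms that recombine more and carry more repeats. The arms of V are known for large families of chemoreceptor and nuclear receptor genes. These points are background and not results of the peak lists. No gene was assigned to a peak and no sequence is printed, because the gene table at hand belongs to another build.

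Besides the combined list there is a list for each ChIP replicate, with 4490 peaks on V in replicate 1 and 5174 in replicate 2. Each peak has a peak number and a score deposited by the authors, which has no stated scale. Rank here means the order by score, best first, with ties ordered by peak number. The highest score of each list is shared by 1976 combined peaks, 986 peaks of replicate 1 and 1966 peaks of replicate 2. Ranks up to these values therefore follow peak number alone, and strongest means first in this order. Library depth is unknown, and the input libraries were not analysed here. Intervals are 95% Wilson intervals and cover the counting of peaks only. No p-value is given for V against the rest, since 1 chromosome against 5 cannot pass a test over chromosomes and neighbouring peaks are not independent of each other. Differences between chromosomes are therefore descriptions. Whether copy number, mappability or DNA in the input moves with any of them was not tested.

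The strongest locus of V lay at V:14347247-14347546, a peak of 300 bp at rank 5 of the combined list. It stood at rank 24 in replicate 1 and at rank 12 in replicate 2, and 8 further combined peaks belonged to its group. The next locus was V:12343586-12343869, at rank 10, with ranks 38 and 22 in replicates 1 and 2. It had no other combined peak within 10 kb, the closest lying 25.1 kb away. V:15189599-15189873 followed at rank 11, with replicate ranks of 47 and 25, and belonged to a group of 4. Rank 13 was another lone peak, V:12318170-12318449, at ranks 32 and 33 in the replicates. V:13789450-13789753 had rank 14 and replicate ranks of 28 and 40. Rank 16 was V:12002003-12002246, in a group of 8, with replicate ranks of 54 and 32.

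Outside the stretch from 11.5 to 15.5 Mb, only 2 of the 15 highest-ranked peaks of V were found. These were V:10897204-10897478, at rank 17 with replicate ranks of 48 and 24, and V:8606308-8606608, at rank 28 with replicate ranks of 69 and 43. The remaining members of the 15 were V:14696914-14697132 (rank 19), V:15085448-15085698 (rank 22), V:11979908-11980161 (rank 26), V:11982365-11982616 (rank 31), V:12728325-12728591 (rank 32), V:14685595-14685912 (rank 39) and V:14351007-14351277 (rank 42). Each of the 15 was listed by both replicates, with ranks between 24 and 92 in replicate 1 and between 12 and 71 in replicate 2. They were 219 to 318 bp wide, below the usual 510 bp. By position, 9 lay in the centre of V, 6 in the right arm and 0 in the left arm. By company, 9 lay in groups of 3 or more peaks and 3 had no neighbour within 10 kb. The best peak of the left arm came at rank 112, at V:6100666-6100894, with replicate ranks of 158 and 147. It shared the highest score with the 15, so its place behind them follows peak number only.

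The first 100 ranks of the combined list held 32 peaks of V and 68 of the 5 other chromosomes together. V makes up 20.9% of the nuclear span. Further down, the share of V fell, with 59 of the first 250 ranks and 98 of the first 500. Over the whole list V held 17.7% of the peaks. Peaks of V were thus plentiful at the very top and scarce over the list as a whole. Plenty at the top was not particular to V. Chromosome III, with 13.75% of the nuclear span, held 19 of the first 100 ranks, 58 of the first 250 and 111 of the first 500. As the first 1976 ranks of the combined list tie at the highest score, these counts follow the authors' peak number.

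V held 22.9 combined peaks per Mb over its span of 20.9 Mb, against 28.1 per Mb on the other 5 chromosomes. Only IV was lower, at 22.1 per Mb, and III was highest, at 33.4. Within V, however, the density was far from even. With each chromosome divided into a centre (the central 33.3% of its span) and an arm of the same length on either side, the centre of V held 243 of 478 peaks (50.8%, 95% CI 46.4 to 55.3). Over all nuclear chromosomes the centre held 40.6%. It held 38.4% on the other 5 chromosomes together, where the shares ran between 31.4% on X and 43.6% on I. V had the highest central share of the 6, also in each replicate list and with peaks of the highest score alone.

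The arms of V differed from each other. The left arm held 98 peaks (20.5%, 17.1 to 24.3), or 14.1 per Mb, and the right arm held 137 (28.7%, 24.8 to 32.9), or 19.7 per Mb. The centre reached 34.9 per Mb, which is within the range of the other 5 centres, 26.1 on IV to 38.5 on I. The left arm of V was the sparsest of the 12 arms measured on all 6 chromosomes, followed by the left arm of II with 16.7 per Mb and the right arm of IV with 17.3.

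**Figure D1:**
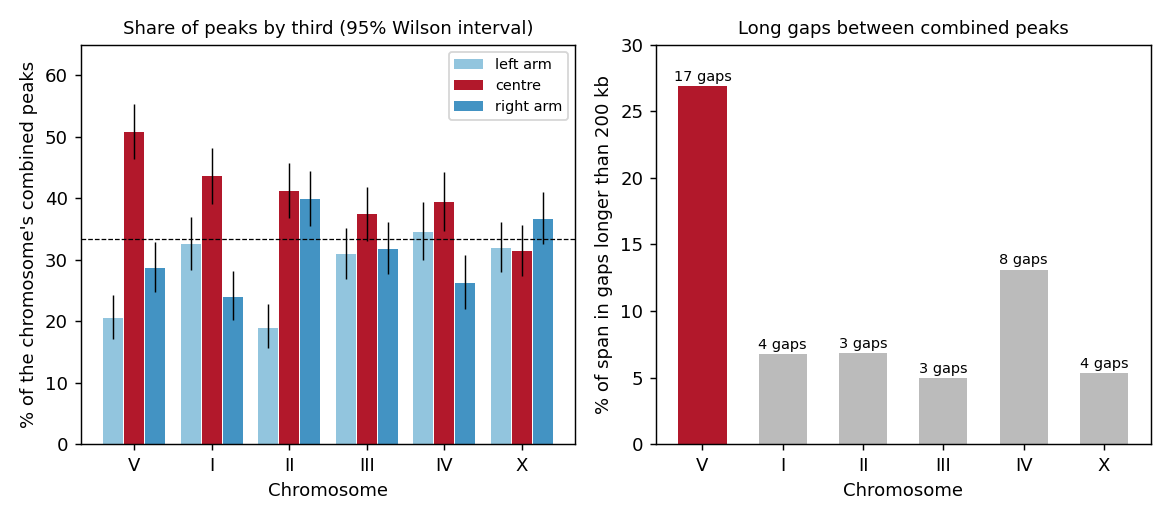
Left: share of each chromosome's combined peaks in its left arm, centre and right arm (percent, error bars are 95% Wilson intervals, dashed line the 33.3% of even spacing). Right: percent of each chromosome's span that lies in gaps longer than 200 kb between combined peaks, with the number of such gaps. V has the highest central share, 50.8%, and 26.9% of its span lies in 17 such gaps.

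In the replicate lists, which are much longer, the centre of V was again fuller than its arms, with a smaller contrast. In replicate 1, 39.3% of the V peaks lay in the centre, against 34.9% on the other chromosomes, and in replicate 2 the shares were 39.3% on V and 35.4% on the others. The order of the arms turned round: the left arm held 30.9% of the V peaks in replicate 1 and the right arm 29.9%, and in replicate 2 these shares were 31.5% and 29.2%. In the combined list the left arm held the smaller share, 20.5% against 28.7%. The share of replicate peaks with a combined peak over them also varied along V. Of the replicate 1 peaks on V, 622 overlapped a combined peak (13.9%), against 13.4% over all nuclear peaks of that list. For replicate 2 the count was 600 (11.6%), against 11.3%. By position the share in replicate 1 was 18.0% in the centre, 12.9% in the right arm and 9.45% in the left arm. In replicate 2 it was 15.3% in the centre, 10.9% in the right arm and 7.54% in the left arm.

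In bins of 500 kb, V fell into a few long stretches. Over the 197 full bins of all chromosomes the quartiles were 9 and 17 combined peaks. V had a run of 8 consecutive bins above 17, from 11.5 to 15.5 Mb, and 2 runs of 8 consecutive bins below 9, from 1 to 5 Mb and from 16 to 20 Mb. On the other chromosomes the longest run above 17 was 3 bins and the longest run below 9 was 4 bins, on II. The variance of the bin counts was 7.42 times their mean on V, against 0.754 on X to 3.51 on II. These stretches were drawn after the counts were seen, so their densities describe the choice and are given with no test.

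The dense stretch held 220 peaks, which is 46.0% of the V peaks on 19.1% of its span, at 55.0 per Mb. Among them were 40 of the 59 V peaks in the first 250 ranks and 25 of the 32 in the first 100. The fullest bin was 14 to 14.5 Mb with 35 combined peaks, where the replicates listed 122 and 153. It was followed by 12 to 12.5 Mb with 33 and by 12.5 to 13 Mb and 13 to 13.5 Mb with 28 each. The bins of the dense stretch ranged between 21 and 35 peaks, and every one of them was above every other bin of V, where the highest count was 18. Its fullness reached across the boundary of the centre: 139 of its peaks (63.2%) lay in the centre and 81 in the right arm. No 4 Mb run of bins on another chromosome held as many, the next being 6 to 10 Mb on I with 162 peaks.

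Without the dense stretch, V kept 258 peaks at 15.3 per Mb, against 22.9 per Mb with it. The centre of what remained held 104 of the 258 (40.3%, 34.5 to 46.4), on 26.8% of the remaining span. Its density there was 23.0 per Mb, against 12.4 per Mb in the remaining arms. The centre of V was therefore fuller than its arms with and without the stretch. Of the 137 peaks of the right arm, 56 were left without it, fewer than the 98 of the left arm.

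The left sparse stretch, 1 to 5 Mb, held 31 peaks at 7.75 per Mb, and the right one, 16 to 20 Mb, held 28 at 7.0 per Mb. Together they made up 38.2% of the span of V and 12.3% of its peaks. The best peak of the right stretch was V:17951237-17951507, at rank 65 with replicate ranks of 41 and 132. In the left stretch the best was V:1151347-1151634, at rank 203 with replicate ranks of 198 and 181. The first 250 ranks held 2 of the 31 peaks on the left (6.45%) and 6 of the 28 on the right (21.4%), against 18.2% of the dense stretch and 9.24% of all nuclear combined peaks. These ranks tie at the highest score, so the counts follow peak number only, and those of the sparse stretches are small. The share of peaks at the highest score was 77.4% on the left and 71.4% on the right, against 73.0% of all nuclear combined peaks.

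Beyond the sparse stretches the density rose again towards both ends of V. The first 1 Mb held 19 peaks, with none in the first 250 ranks, and the last 0.917 Mb also held 19, or 20.7 per Mb. The best peak of the left end was V:724035-724233 at rank 473, and that of the right end was V:20729020-20729221 at rank 195. Between the left sparse stretch and the dense one, from 5 to 11.5 Mb, there were 152 peaks at 23.4 per Mb, close to the mean of V.

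The same stretches differed less in the replicate lists. In replicate 1 the dense stretch had 268 peaks per Mb, against 172 in the left and 169 in the right sparse stretch, a ratio of 1.56 and 1.58. In replicate 2 it had 323 per Mb, against 201 and 180, a ratio of 1.60 and 1.79. In the combined list the ratios were 7.10 and 7.86. The share of replicate peaks that overlapped a combined peak followed: it was 26.7% in replicate 1 and 21.6% in replicate 2 in the dense stretch, against 5.67% and 4.60% in the left sparse stretch and 5.02% and 4.17% in the right one. Since the combined peaks defined the stretches, these shares follow in part from the choice.

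**Figure D2:**
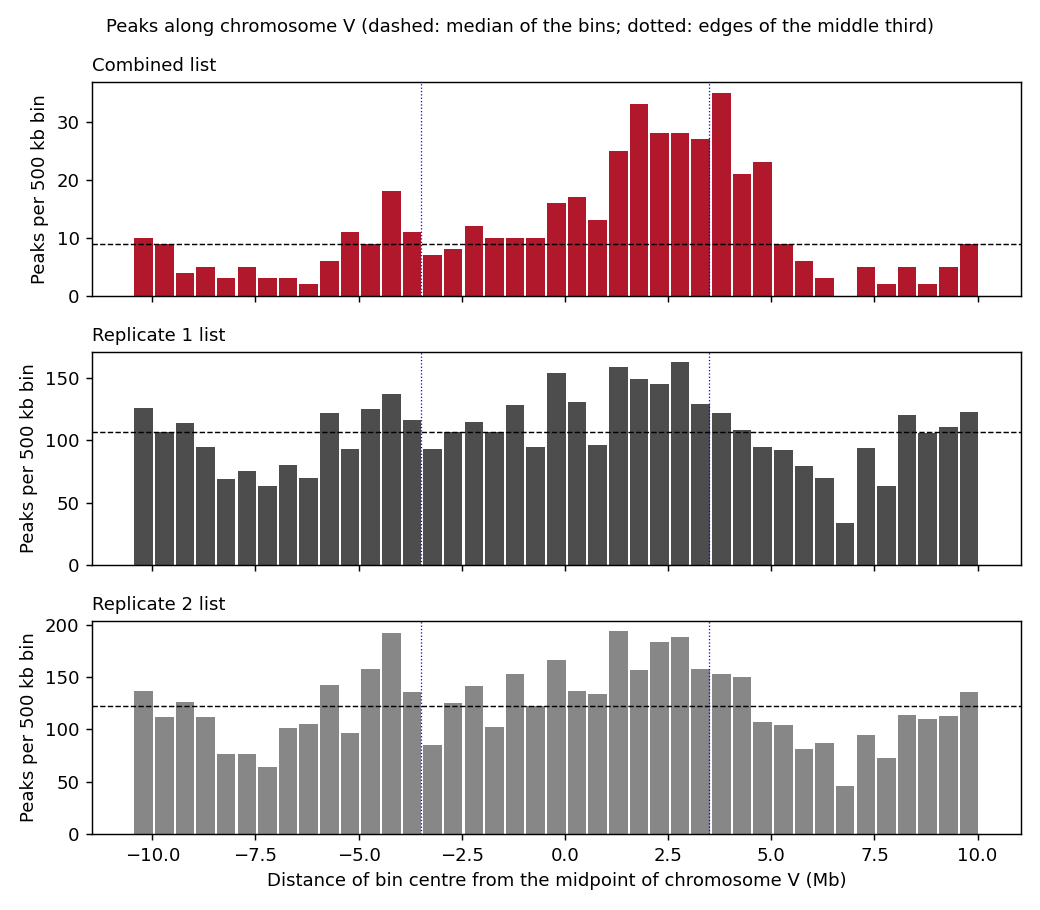
Peaks per full 500 kb bin along V in the combined list (top), replicate 1 (middle) and replicate 2 (bottom), plotted by the distance in Mb of the bin's centre from the midpoint of the chromosome. Dashed lines are the medians of the bins (9, 107 and 122 peaks) and dotted lines the edges of the centre. The combined list has 8 neighbouring bins of 21 to 35 peaks right of the midpoint and 1 bin with none, which is also the lowest bin of both replicates.

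Some stretches of V held no combined peak over a long distance. V had 17 gaps longer than 200 kb between neighbouring combined peaks, against 22 on the 5 other chromosomes together. These gaps took up 26.9% of the span of V, against 7.54% of the others, where IV was highest with 13.1%. Of the 17 gaps, 15 lay in the sparse stretches. The median gap of V was nonetheless 18.2 kb, against 20.6 kb on the others. It was 10.2 kb inside the dense stretch. In every other stretch of V it was above the 20.6 kb of the other chromosomes. It ran from 21.4 kb in the last 0.917 Mb and 25.2 kb between 5 and 11.5 Mb to 68.5 and 94.3 kb in the right and left sparse stretches.

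The longest gap of the combined list was V:16965935-17659101, 693 kb without a peak. The longest gap elsewhere was 432 kb, on IV. Both replicates were thin there too, with 51 peaks in replicate 1 (73.6 per Mb) and 64 in replicate 2 (92.3 per Mb), against 215 and 247 per Mb over the whole of V. The best of them stood at rank 4493 in replicate 1 and at rank 4708 in replicate 2. Of the 51 peaks, 13 (25.5%) were overlapped by a peak of replicate 2, against 53.2% over all replicate 1 peaks of V. Of the 64, 13 (20.3%) were overlapped by replicate 1, against 45.8% over V. A gap holds no combined peak by definition, and both replicates listed nearly every combined peak. Lower sharing than over V therefore follows in part from the choice of gaps.

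The second gap, V:3689212-4194743, was 506 kb long and held 75 and 99 peaks of replicates 1 and 2, so it was better filled. Its best replicate peaks had rank 1268 and rank 1768, better than the median combined peak of V in replicate 1 (1483) but not in replicate 2 (1353). Both replicate 2 ranks lie within the ties at the highest score of that list, so their order follows peak number only. Also in the left sparse stretch were V:2810652-3195143 (384 kb), with 40 and 39 peaks of replicates 1 and 2, and V:2219283-2600470 (381 kb), with 34 in each. In the right one, V:19158977-19522615 was 364 kb long. Replicates 1 and 2 listed 74 and 73 peaks in it, which is 204 and 201 per Mb. V:19666758-20005647 (339 kb) held 60 and 64. Some gaps were therefore thin in all 3 lists and others held replicate peaks at nearly the density of V as a whole. Replicate peaks were less often shared in these gaps too, which again follows in part from the choice of gaps. From the second to the sixth gap, 22.5% to 38.7% of replicate 1 peaks were overlapped by replicate 2, against 53.2% over V. For replicate 2 the shares were 23.5% to 33.3%, against 45.8%. Besides the empty bin at 17 to 17.5 Mb, where replicates listed 34 and 46 peaks, the emptiest bins were 4 to 4.5 Mb, 18 to 18.5 Mb and 19 to 19.5 Mb, with 2 combined peaks each. The replicates listed 70 and 105 peaks in the first of these, 63 and 73 in the second, and 106 and 110 in the third.

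Peaks of V often stood in groups. When peaks with at most 10 kb between them were joined, V had 298 groups: 209 single peaks, 47 pairs and 42 groups of 3 or more. These 42 held 175 peaks (36.6%, 32.4 to 41.0), against 30.7% of all nuclear combined peaks. The share was 29.4% on the other 5 chromosomes together, between 18.4% on IV and 35.9% on II, so V and II were hardly apart. With overlapping peaks joined first, V had 40 such groups holding 33.9% of its regions, against 34.2% on II. Groups of 5 or more numbered 12 on V and 26 on the others together, with 8 on II and 8 on III. Of the 12, 10 lay in the dense stretch, and 119 of its 220 peaks (54.1%) stood in groups of 3 or more. Outside it 15 groups of 3 or more were left, holding 20.9% of the 258 peaks there. For this count groups were cut at the edges of the stretch, while the 119 peaks inside were counted by the size of their whole group. The right sparse stretch had no group of 3 or more. The stretches were chosen by their density, and a fixed 10 kb joins more peaks where they are dense. These contrasts between stretches therefore follow in part from the choice.

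The largest group of V had 9 peaks over 21.4 kb, at V:14347247-14368691. It begins with the strongest peak of V, at rank 5, and also holds rank 42. Its weakest member stood at rank 2640, near the end of the list, and 6 of the 9 had the highest score. The replicates listed 19 and 17 peaks over the same interval. Next were 2 groups of 8. V:11979908-12004819 spanned 24.9 kb and held ranks 16, 26 and 31, while V:12288506-12303722 spanned 15.2 kb and had rank 75 as its best. The group of 7, V:12539137-12554817, had rank 237 as its best and no peak below the usual width.

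There were 4 groups of 6, and all lay in the dense stretch. V:13372826-13391791 had rank 139 as its best, V:13551536-13581125 rank 57, V:14127810-14139692 rank 47 and V:14498178-14511154 rank 597. The second of these was the longest group of V, with 29.6 kb, and all 6 of its peaks had the highest score. Of the 4 groups of 5, V:14685595-14697132 held ranks 19 and 39, and V:13262655-13269806, the shortest at 7.15 kb, had rank 533 as its best. The other two lay outside the dense stretch, V:724035-731727 with rank 473 as its best and V:10031440-10043682 with rank 543. In 6 of the 12 groups a peak of the first 250 ranks stood with a member beyond rank 2000. Of the other groups, 2 held a peak of the first 250 ranks and no member beyond rank 2000, and 4 held none of the first 250. Combined peaks covered 7.12% to 27.3% of the length of these groups. Some members overlapped: the 76 peaks of the 12 groups made 65 separate regions, and 8 groups held at least 1 overlapping pair. With overlapping peaks joined, the group of 9 had 7 regions, both groups of 8 had 7, the group of 7 had 5, and 9 of the 12 groups still had 5 or more. Counted in the same way, II had 8 groups of 5 or more and III had 8, so V was hardly apart from them.

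**Figure D3:**
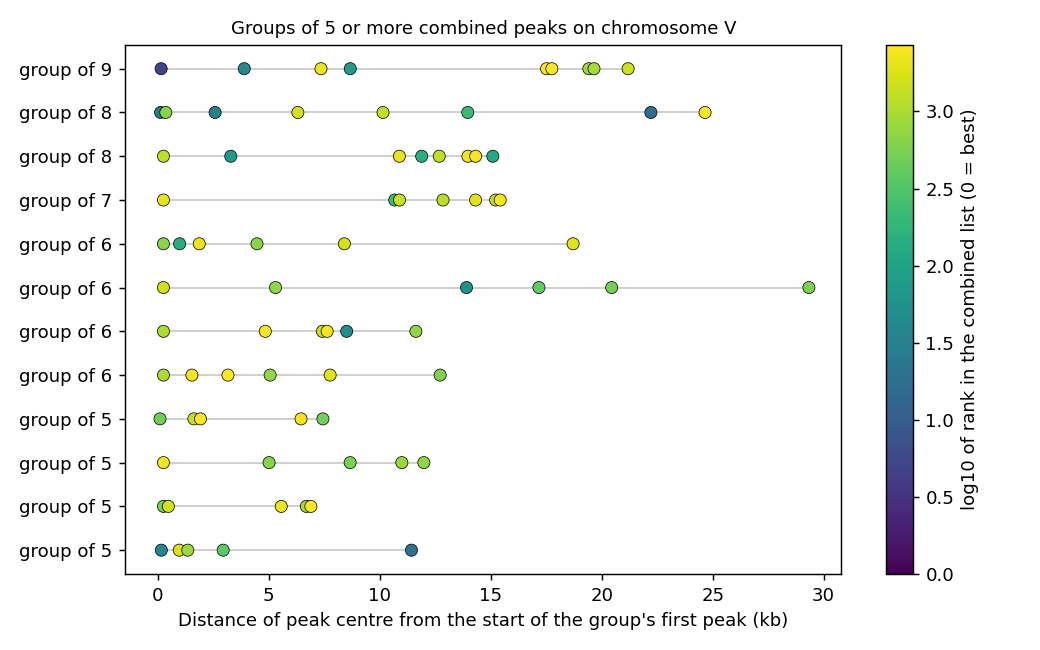
The 12 groups of 5 or more combined peaks on V, 1 row each, largest at the top. Each point is a peak, placed by the distance in kb of its centre from the start of the group, and coloured by the log10 of its rank in the combined list (darker is better). The group of 9 begins with rank 5 and spreads over 21.4 kb, and points of very different rank share a row.

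Nearly every combined peak of V was also listed in each replicate. Replicate 1 overlapped 472 of 478 by at least 1 bp (98.7%, 97.3 to 99.4), against 99.0% over all nuclear combined peaks. Replicate 2 overlapped 476 (99.6%, 98.5 to 99.9), against 99.8%. Both replicates overlapped 470 (98.3%), against 98.8%. Support on V was thus near that of the list as a whole. The combined list comes from the same ChIP replicates, and the replicate lists are much longer, so high overlap is not independent support. The median combined peak of V had rank 1483 in replicate 1 and 1353 in replicate 2, against 1757 and 1388 on the other chromosomes. Peaks among the first 10% of replicate ranks covered 72.0% of the V peaks in replicate 1 and 82.2% in replicate 2, against 68.0% and 81.2% on the others.

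The 8 V peaks missing from a replicate ranged between rank 151 and rank 2680 of the combined list, and 3 of them were below the highest score, as were 117 of all 478 V peaks. Replicate 1 lacked 6, of which 5 lay in the dense stretch, where 220 of all 478 V peaks (46.0%) stood. The best of these was V:13909514-13909645, only 132 bp wide, at rank 151 of the combined list and rank 203 in replicate 2. The closest replicate 1 peak was 722 bp away. The others were V:12741647-12742156 (rank 1435), V:11896433-11896942 (rank 1821), V:12599082-12599591 (rank 2296), V:619064-619573 (rank 2400) and V:11951907-11952416 (rank 2680). Replicate 2 lacked V:15425828-15426337, at rank 759, and V:20782122-20782631, at rank 1688, which stood at ranks 202 and 515 in replicate 1. A peak of the lacking replicate lay 149 bp to 3308 bp away in all 8 cases.

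Where both replicates listed a V peak, their ranks could still be far apart. In 33 of 470 cases (7.02%) the better rank was at least 10 times smaller than the other, against 5.90% on the other chromosomes. Replicate 1 had the better rank in 16 of the 33 and replicate 2 in 17. The best placed in the combined list was V:12870017-12870240, at rank 115, with rank 25 in replicate 1 and rank 1229 in replicate 2. Both ranks lie within the ties at the highest score of their lists, so this split is one of peak number only. The next 3 had the better rank in replicate 2. They were V:6213696-6214205 (rank 260), with ranks 2746 and 173 in replicates 1 and 2, V:11521506-11521737 (rank 307), with 2316 and 145, and V:12091665-12092174 (rank 349), with 1938 and 171. The 15 highest-ranked peaks of V showed no such split.

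The balance between the replicates varied along V. With ranks given as a percent of the length of each list, replicate 1 had the better rank for 78 of 238 peaks in the centre (32.8%), 62 of 135 in the right arm (45.9%) and 52 of 97 in the left arm (53.6%). On the other chromosomes together, the shares were 46.1% in the centre, 43.0% in the right arm and 41.0% in the left arm. X had a share as low as 31.4% in its left arm, so V was not alone in this. Where both ranks fall within the ties at the highest score, the better rank reflects peak number only. With 1 list per replicate, whether the difference along V is more than the spread between libraries was not tested.

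**Figure D4:**
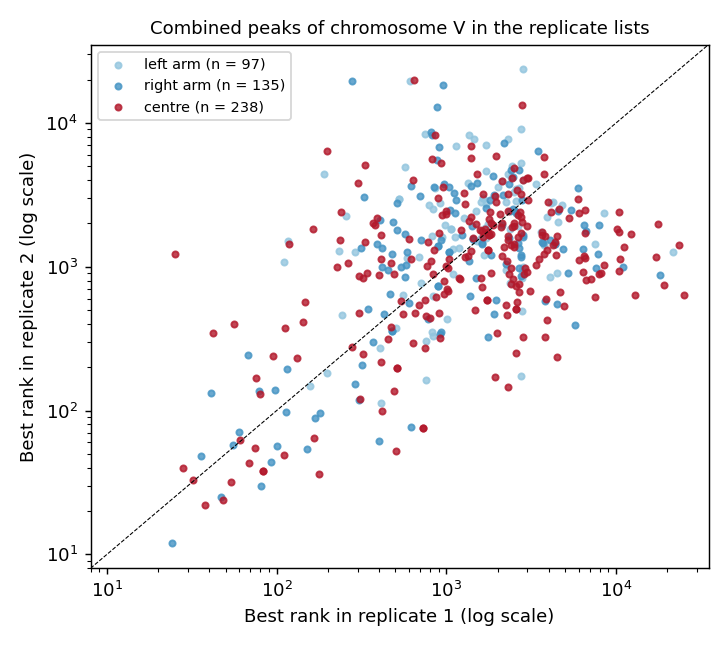
Best rank of each combined V peak in replicate 1 (horizontal, log scale) and replicate 2 (vertical, log scale) for the 470 peaks listed in both, coloured by position, with equal ranks on the dashed line. The strongest peaks lie together at the lower left, and most of the others form a loose cloud at much lower standing. A centre peak at rank 25 in replicate 1 and rank 1229 in replicate 2 stands apart at the left, though both ranks lie within ties at the highest score.

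Most high-ranked replicate peaks of V overlapped a combined peak. Of the 198 V peaks in the first 1000 ranks of replicate 1, 185 overlapped a combined peak (93.4%), against 96.0% of all nuclear peaks of those ranks. Of 184 in replicate 2, 175 did (95.1%), against 98.2%. On the other 5 chromosomes alone the shares were 96.7% in replicate 1 and 98.9% in replicate 2. The best peak left out of the combined list was V:13716419-13716948 in replicate 1, at rank 153. A replicate 2 peak at rank 846 overlapped it, and the nearest combined peak was 711 bp away. In replicate 2 the best was V:13818947-13819402, at rank 188, overlapped by a replicate 1 peak at rank 1848 and 10253 bp from the nearest combined peak. Of the 13 left out in replicate 1, 10 were overlapped by replicate 2, and 9 lay in the dense stretch. Of the 9 left out in replicate 2, 6 were overlapped by replicate 1, and all 9 lay in the dense stretch. How many of all V peaks in the first 1000 replicate ranks lay in that stretch was not counted. Without that share, the left-out peaks cannot be called concentrated there. The stretch held 40 of the 59 combined V peaks in the first 250 ranks, so high-ranked combined peaks were common there. That count comes from another list and another cut.

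In score and width, V was close to the rest of the list. A total of 361 V peaks had the highest score (75.5%, 71.5 to 79.2), against 73.0% of all nuclear combined peaks. The share was 70.4% in the left arm, 75.7% in the centre and 78.8% in the right arm. Width was 510 bp for 393 V peaks, and none was wider, while 3 listed peaks elsewhere were. The other 85 (17.8%, 14.6 to 21.5) were narrower, against 18.4% of all, with a median of 222 bp and the narrowest at 128 bp. Narrow peaks were those of high rank on V: 32 of 32 in the first 100 ranks were narrower than usual, 44 of 66 at ranks 101 to 500, 9 of 263 at ranks 501 to 1976 and 0 of 117 beyond. The share in the first 100 ranks was thus 100% on V, against 95.6% on the other chromosomes, and at ranks 501 to 1976 it was 3.42% on V, against 9.07% on the others. In the replicate lists, 19 of the best-ranked replicate 1 peaks over V peaks and 24 of those of replicate 2 were narrower than usual. V had no interval listed more than once, and joining the 15 peaks that overlap the one before them leaves 463 separate regions.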

How the data were processed

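The data were 3 peak lists, 1 for each of the 2 NHR-6 ChIP replicates and 1 combined list. Peaks were called on WormBase WS220 by SPP with an irreproducible discovery rate (IDR) step, per the file headers and source fields. The sources used here do not name the aligner, the threshold or how replicates were combined. The score deposited by the authors for every peak has no stated scale and served only for ranking inside 1 list. Replicates are numbered in the labels, which do not say that they came from separate cultures, so their spread may be technical.

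Peaks were placed by their centre. The span of a chromosome is its largest peak end over the 3 lists. Groups join peaks with at most 10 kb between end and start. Overlap means at least 1 bp. Named regions are the 15 highest-ranked V peaks, groups of 5 or more, the 6 longest gaps, the fullest and emptiest bins, and peaks missing from a replicate; other regions were named after their values were seen. The regions and measures were chosen with earlier results of these data known. Functions were checked on simulated peaks with known answers. Python 3.11.15, numpy 2.4.6, pandas 2.3.3, scipy 1.17.1 and matplotlib 3.10.9 were used.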

Additional observations from a re-analysis of the deposited data

How the results depend on the processing

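Of 80 values under another setting, 47 stayed within their interval or within 1.5 times the count reported, and 33 moved. Using the highest-ranked nuclear peaks of a single replicate in place of the combined list gave a density ratio on V of 0.887 to 0.892 of the nuclear mean, against 0.846, a central share of 50.9% to 54.8%, and shares of 47.7% to 48.2% in the dense stretch and 10.5% to 12.4% in the sparse ones. Groups of 3 or more then numbered 49 to 51 and held 41.7% to 43.1% of peaks. The longest gap stayed at the same place, with 693 to 696 kb, and the fullest bin moved to 12 to 12.5 Mb (41 peaks, without replicate 1) or 12.5 to 13 Mb (35 peaks, without replicate 2).

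The full lists of replicates 1 and 2 lowered the central share to 39.3% and 39.3%, raised the left arm to 30.9% and 31.5%, and gave 23.8% and 24.9% in the dense stretch and 30.4% and 29.4% in the sparse ones. Counting peaks within 10 kb once gave 25.2% in the left arm, 34.9% in the dense stretch and 17.1% in the sparse ones. The central 50% of the span held 77.6%. With the dense stretch left out of V and of the nuclear mean, a choice made after seeing the data, the density ratio was 0.590, the central share 40.3%, and 15 groups of 3 or more held 20.9% of peaks. The share in such groups was 31.3% with peaks of the highest score only, 26.2% at a distance of 5 kb and 55.6% at 20 kb. V was highest of 6 at 10 kb and 5 kb, and second at 20 kb, with distances between centres and, in a setting added after seeing the data, with overlapping peaks joined first. Bins of 1 Mb had 61 peaks at most and a median of 19.5, as wider bins must hold more. Requiring overlap of 50% of both peaks lowered support to 86.6% in replicate 1 and 89.3% in replicate 2, centres within 100 bp gave 93.3% and 96.2%, and the first 10% of ranks gave 72.0% and 82.2%. With overlap of 50%, 10.5% and 9.34% of replicate 1 and 2 peaks on V met a combined peak. Of the replicate peaks over V peaks, 4.03% and 5.04% were narrower than usual. For values not explained by fewer or longer lists, the cause was not tested. No paired analysis was possible because no input library was analysed here and no result sets ChIP against input. Depth is unknown, so what it limits could not be examined.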
